A study of Mus musculus with 24 samples.

Results

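SNI was compared with sham surgery in the medial prefrontal cortex (mPFC) of female mice, using all 6 libraries of that sex and region among the 24 of the series, 3 after SNI and 3 after sham surgery. Of 33364 genes listed, the 16897 that passed a low-count filter were tested. A few genes under the filter are given by their counts only. SNI, spared nerve injury, is a model of neuropathic pain in which the common peroneal and sural branches of the sciatic nerve are tied and cut and the tibial branch is spared. Sham animals had the same operation with the nerves left unharmed. All animals in both groups were C57BL/6 females (C57BL/6J in the study's methods), 3 months old, and the tissue was taken 2 weeks after surgery. Each library was made from 1 pool of several animals, so single animals cannot be seen, and the p-values below measure the spread between pools. The comparison addresses which transcripts differ in this region of females once neuropathic pain is established.

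The mPFC is a frontal cortical area that takes part in the control of mood, attention and the unpleasantness of pain. Its bulk RNA comes from excitatory neurons arranged in layers, from inhibitory interneurons, and from glia and vessels. Oligodendrocytes wrap axons in myelin, a stack of membrane rich in lipids and in a few abundant proteins such as MBP, and their RNA is among the most abundant of any glial cell in cortex with underlying white matter.

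The libraries held 23853845 to 27233224 reads counted on genes, so that a floor of 3 counts corresponds to 0.111 to 0.127 CPM, the count scaled by the normalised library size. A floor of this kind covers counting error only. The standard errors (SE) below come from the test of SNI against sham and include the spread between pools. Labels of sex and of cortex as the tissue were checked first, and no check of the cortical region is given here. Xist, the X-inactivation RNA of females, had 585 to 768 CPM, the Y-linked genes Ddx3y, Uty and Eif2s3y did not pass the filter, and the Y-linked Kdm5d had 0.74 to 1.04 CPM. Among cortical genes Tbr1, a transcription factor of excitatory neurons, had 169 to 195 CPM and Gad1, which makes GABA, had 255 to 273 CPM.

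A pair of libraries stood apart from the other pools of their group in ways that touch the results. In the pool SNI 1 the myelin genes described below took 0.275% of all counts, against 0.491% to 0.578% in the other 5 pools. Over GC content, the share of G and C bases in a transcript, sham 3 lay nearer to the SNI pools than to sham 1 and sham 2. With the genes divided by GC into 5 classes of like size, and for the class poorest in GC, the median deviation of log2 CPM from each gene's mean over the 6 pools was −0.16 in sham 1, −0.16 in sham 2 and 0.07 in sham 3, and 0.13, 0.02 and 0.11 in SNI 1, 2 and 3. Values without the pool, or after a GC-content offset, are given beside many of the results that rest on either pool. The offset removes a smooth trend of each library over GC.

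At a false discovery rate (FDR) under 0.1, edgeR's quasi-likelihood test called 1 gene, the lincRNA Gm26508, which fell after SNI. That is 0.00592% of the genes tested. Without adjustment, p was under 0.05 for 1133 higher and 906 lower genes (6.71% and 5.36%), and the SNI and sham pools did not overlap in 2545 genes (15.1%), of which those with every SNI pool higher made up 7.43% of the genes tested. Among the more uniform groups were the myelin genes, of which 43 of 44 had a lower mean after SNI, with the lowest value in SNI 1 for 43 of 44. In the other direction, all 12 mitochondrially encoded genes tested had higher means after SNI, as had 49.4% of all genes. So had 21 of 24 nuclear-retained or host-gene long noncoding RNAs and 18 of 22 genes of meningeal fibroblasts and collagens. None of these genes passed the FDR threshold, so their values are given as measured differences. The median absolute log2 fold change over all genes tested was 0.12, and 50.6% of them had a lower mean after SNI.

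**Figure D1:**
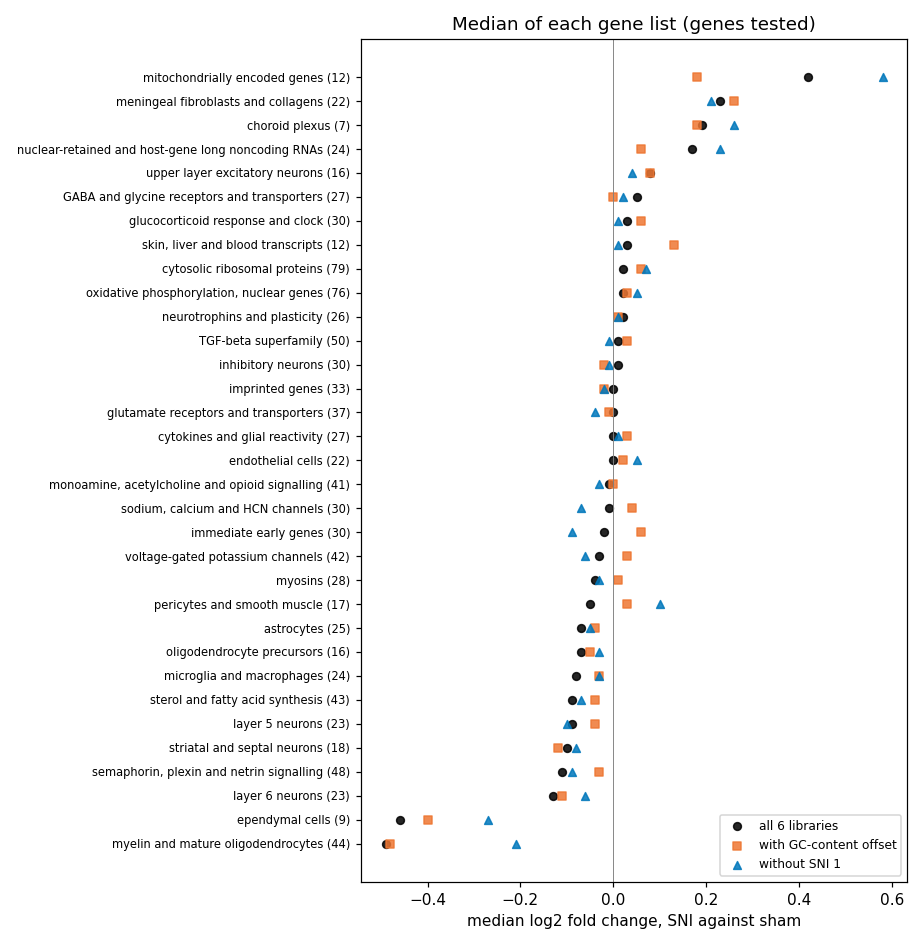
Median log2 fold change, SNI against sham (x axis), of each gene list (y axis, genes tested in parentheses), over all 6 libraries (circles), with a GC-content offset (squares) and without the pool SNI 1 (triangles). The myelin list lies at −0.49, −0.48 and −0.21, the ependymal list at −0.46, −0.40 and −0.27, and the mitochondrially encoded list at 0.42, 0.18 and 0.58.

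The myelin list held 44 genes of mature oligodendrocytes and myelin, all of which were tested. Their median log2 fold change was −0.49, against 0.00 over all genes. Of the 44, 30 (68.2%) were lower at an unadjusted p under 0.05, as were 5.36% of all genes, and in 27 (61.4%) every SNI pool lay below every sham pool, as in 7.63% of all genes. The median deviation of the list was 0.23, 0.36 and 0.20 in the sham pools and −1.0, 0.10 and −0.01 in SNI 1, 2 and 3. The difference is thus largest in SNI 1, but it is not limited to that pool. In SNI 2 and SNI 3, 38 of the 44 genes lay under the sham mean in both pools and 27 lay under every sham pool. With SNI 1 left out the median was −0.21, 41 genes were lower and 22 were lower at an unadjusted p under 0.05, where 3.01% of all genes were. With the GC-content offset the median was −0.48 and 32 were lower at that threshold, where 3.46% of all genes were. In bulk RNA, fewer oligodendrocytes and less RNA per oligodendrocyte cannot be told apart. How far the amount of white matter in a pool enters these values was not tested.

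**Figure D2:**
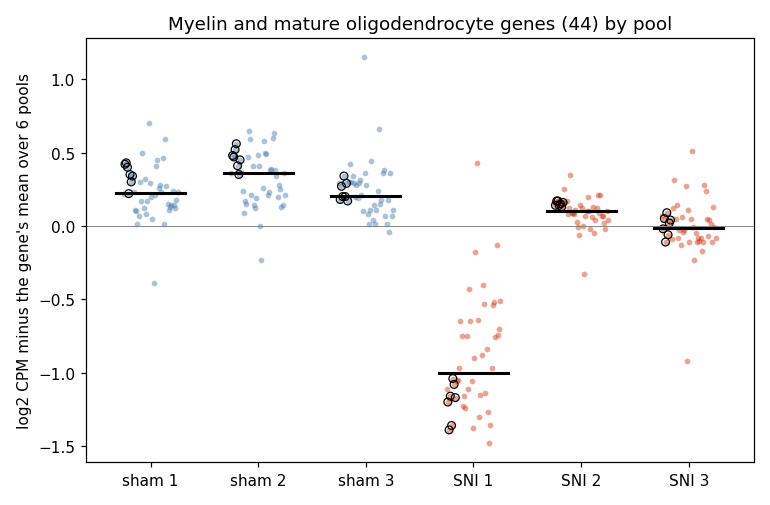
Deviation of each of 44 myelin genes in each pool (log2 CPM minus the gene's mean over the 6 pools, y axis), with sham pools in blue, SNI pools in red, the main myelin genes outlined and the median as a bar. The medians are 0.23, 0.36 and 0.20 in the sham pools and −1.0, 0.10 and −0.01 in SNI 1, 2 and 3.

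Among the structural proteins of compact myelin, Mbp (myelin basic protein) had 1370, 1430 and 1160 CPM after sham surgery and 445, 1120 and 1010 CPM after SNI (log2 fold change −0.62, SE 0.24). Mobp, another basic myelin protein, had 434, 445 and 387 CPM against 123, 362 and 333 CPM (−0.63, SE 0.27). In both the SNI 1 value was the lowest by far, and the other SNI pools lay just under the lowest sham pool. Without SNI 1 the log2 fold changes were −0.31 for Mbp and −0.28 for Mobp.

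In the adhesion and membrane proteins SNI 1 was again the lowest pool. Mag, which holds myelin to the axon, had 115, 125 and 101 CPM after sham surgery and 39, 98.2 and 80.9 CPM after SNI (log2 fold change −0.64, SE 0.23). Mog, on the outer face of the sheath, had 24.7, 31.3 and 26.7 CPM against 8.2, 23.4 and 22.6 CPM (−0.60, SE 0.26). Cldn11, the tight-junction protein between myelin layers, had 82.6, 89.1 and 73.5 CPM against 29, 72.8 and 67 CPM (−0.53, SE 0.23). Cnp, an enzyme of non-compact myelin, and Mal, a sorting protein of myelin lipids, had log2 fold changes of −0.55 (SE 0.21) and −0.53 (SE 0.21). Without SNI 1 the values were −0.34 for Mag, −0.26 for Mog, −0.22 for Cldn11, −0.27 for Cnp and −0.24 for Mal. No SNI pool overlapped a sham pool in any of these genes.

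The members with the smallest p were less abundant. Nkx6-2, a homeobox factor of maturing oligodendrocytes, had 10.1, 11.3 and 10.2 CPM after sham surgery and 3.02, 8.08 and 6.44 CPM after SNI (log2 fold change −0.84, SE 0.23, unadjusted p = 0.00343). Klk6, a protease made by oligodendrocytes, had 16, 11 and 21 counts after sham surgery and 3, 9 and 4 after SNI (log2 fold change −1.59, SE 0.48), which are few counts. Both kept much of their difference without SNI 1, at −0.54 and −1.36. A single member went the other way: Ptgds, the prostaglandin D2 synthase also made by meninges and named here after its values were seen, had 6708, 7785 and 8213 counts after sham surgery and 10804, 7303 and 13051 after SNI (log2 fold change 0.45), and its groups overlapped.

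Stretches of DNA upstream of myelin genes are shown as a description. No link between the values above and these stretches was tested. They are RefSeq sequences of build GRCm38.p6, 5′ to 3′ on the strand of the gene, from 250 to 51 bases before the annotated start. Capitals mark exact matches on either strand to ACAAAG, a core recognised by SOX proteins that reads CTTTGT on the other strand, and to CTGGCAC. Neither motif overlaps the other here.
Mobp, chr9:120149492-120149691, plus strand: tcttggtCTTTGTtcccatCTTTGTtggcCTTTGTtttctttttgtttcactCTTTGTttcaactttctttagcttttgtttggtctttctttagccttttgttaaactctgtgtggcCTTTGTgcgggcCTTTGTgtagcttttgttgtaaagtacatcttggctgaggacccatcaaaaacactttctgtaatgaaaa
Cnp, chr11:100574689-100574888, plus strand: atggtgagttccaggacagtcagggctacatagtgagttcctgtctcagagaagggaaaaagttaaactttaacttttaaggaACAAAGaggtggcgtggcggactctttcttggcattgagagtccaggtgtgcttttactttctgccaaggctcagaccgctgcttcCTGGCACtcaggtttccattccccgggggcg
Mog, chr17:37023449-37023648, minus strand: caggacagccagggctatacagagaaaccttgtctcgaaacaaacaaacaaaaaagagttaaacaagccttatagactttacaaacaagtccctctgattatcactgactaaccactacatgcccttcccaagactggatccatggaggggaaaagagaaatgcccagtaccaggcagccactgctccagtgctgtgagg
The Mobp stretch holds 6 matches to ACAAAG, all as CTTTGT, and the Cnp stretch holds 1 match to each motif. Neither motif, nor the related ACAATG, was found in the Mog stretch or in those of Mal and Cldn11. Of 32851 mouse promoters searched over the same 200 bases, 13.6% held ACAAAG, 8.94% ACAATG and 3.35% CTGGCAC on either strand. A match is a description of the letters and not a binding site.

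The myelin list had a median log2 fold change of −0.45 in the male mPFC, where 43 of 44 genes were lower (49.6% of all genes were), and 0.13 in the female anterior cingulate cortex (ACC), where 5 of 44 were lower (50.3% of all genes were). At an FDR under 0.1, 17 of the 44 were called in the male mPFC, where 0.494% of all genes were. In the female mPFC and the female ACC 0 of the 44 were called. The 2 regions of the female mice come from separate libraries. Whether same-numbered pools of the 2 regions hold the same animals is not given in the sources used here. The region by SNI interaction below treats the libraries as independent. In the sex by SNI interaction the difference between females and males was −0.15 for Mbp (unadjusted p = 0.635). In the region by SNI interaction the difference between the mPFC and the ACC was −0.82 for Mbp (unadjusted p = 0.0266, adjusted p = 0.43 in edgeR) and −0.95 for Nkx6-2 (unadjusted p = 0.00703, adjusted p = 0.428). Neither interaction passed the FDR threshold for any gene, and the myelin values of the 3 comparisons therefore stand side by side.

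Precursors of the lineage had a median nearer 0. Of 16 genes of oligodendrocyte precursors 12 had a lower mean in the SNI pools and the median was −0.07. Pdgfra, the growth factor receptor that defines precursors, had 63.9, 75.5 and 74.8 CPM after sham surgery and 66.5, 68.2 and 70.9 CPM after SNI (log2 fold change −0.06, SE 0.08), with overlapping groups. Olig2, a transcription factor of the whole lineage, had 35.3, 35.1 and 32.4 CPM against 20.8, 31.2 and 27.9 CPM (−0.36, SE 0.12, and −0.21 without SNI 1). Mmp15, a membrane-bound metalloprotease, had a log2 fold change of −0.32 (SE 0.11), and −0.18 after the GC-content offset.

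Markers of astrocytes and microglia had medians just below 0. Of 25 astrocyte genes 17 had a lower mean (median −0.07), 5 (20%) at an unadjusted p under 0.05, where 5.36% of all genes were, and 0 after the GC-content offset. Slc1a2, the main glutamate transporter of astrocytes, had a log2 fold change of 0.06 (SE 0.08). Gfap, a filament protein that marks reactive astrocytes, had 108, 131 and 118 CPM after sham surgery and 74.6, 101 and 126 CPM after SNI (−0.24, SE 0.14, and −0.07 without SNI 1), with overlapping groups. Mlc1 and Acsbg1, an astrocyte membrane protein and a lipid enzyme, did not overlap but differed by −0.16 (SE 0.06) and −0.17 (SE 0.07), or by −0.11 and −0.08 after the offset. Of 24 genes of microglia and macrophages 15 were lower (median −0.08). Cx3cr1, the fractalkine receptor, had −0.08 (SE 0.07), while Trem2, a lipid-sensing receptor of microglia, had 8.99, 9.54 and 8.71 CPM against 7.69, 6.93 and 7.77 CPM (−0.28, SE 0.11) and Selplg −0.19 (SE 0.08). Of 38 cytokine and glial reactivity genes 27 were tested, 14 higher and 13 lower with a median of 0.00, and the cytokines Il1b, Tnf and Ccl2 were under the filter in these libraries.

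Vessel genes were balanced. The 22 endothelial genes divided into 11 higher and 11 lower (median 0.00), with Cldn5, a tight-junction protein of brain endothelium, at −0.14 (SE 0.09, and 0.02 after the GC-content offset) and the transporter Slco1a4 at 0.23 (SE 0.09, and then 0.05). The 17 genes of pericytes and smooth muscle had a median of −0.05, and Pdgfrb, the receptor that defines pericytes, had −0.07 (SE 0.09, and 0.02 after the offset).

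Genes of the tissue's borders differed in both directions. Of 22 genes of meningeal fibroblasts and collagens 18 had a higher mean after SNI, with a median of 0.23 and of 0.26 with the GC-content offset. At an unadjusted p under 0.05, 5 (22.7%) were higher and 1 (4.55%) lower, where 6.71% and 5.36% of all genes were. The pools did not overlap in 9.09% of this list, against 15.1% of all genes. Ogn (osteoglycin, a matrix protein) had 1.2, 1.97 and 4.07 CPM after sham surgery and 7.22, 2.93 and 6.36 CPM after SNI (log2 fold change 1.20, SE 0.38), although SNI 2 lay within the sham range. Slc6a13, a GABA transporter of the meninges, had 8.6, 7.5 and 9.21 CPM against 11.5, 9.49 and 12.8 CPM (0.42, SE 0.13), and every SNI pool was higher. Col1a1, the type I collagen chain, overlapped (0.25, SE 0.13). The list's summed level was 168 to 211 CPM in the sham and 187 to 249 CPM in the SNI pools, and its median fell to 0.10 without sham 1 and 0.07 without SNI 3. Of 15 ependymal genes 9 were tested and 8 of these were lower, with a median of −0.46, or −0.15 without sham 3 and −0.27 without SNI 1. Foxj1, the regulator of motile cilia, had 4.44, 4.08 and 4.6 CPM against 2.12, 3.04 and 3.7 CPM (−0.56, SE 0.19, and −0.37 without SNI 1). Of 15 choroid plexus genes 7 passed the filter, 5 of them higher, with a median of 0.19 that was −0.06 without SNI 2. How far the amount of meninges or ventricle lining in a pool enters these values was not tested.

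Layer markers differed by small amounts. Of 16 upper layer genes 11 had a higher mean after SNI (median 0.08), with Rasgrf2, an exchange factor for Ras, at 181, 182 and 184 CPM after sham surgery and 213, 193 and 204 CPM after SNI (log2 fold change 0.16, SE 0.06, and 0.10 after the GC-content offset). Nectin3, an adhesion protein of upper layer neurons, had 28.4, 28.6 and 32.9 CPM against 37.5, 33.7 and 36 CPM (0.25, SE 0.08, and 0.20 after the offset). Of 23 layer 5 genes 16 were lower (median −0.09). Bcl11b, a factor of subcerebral projection neurons, overlapped at −0.15 (SE 0.08) and the relaxin receptor Rxfp1 was at 0.31 (SE 0.11), which was 0.15 after the offset. Of 23 layer 6 genes 18 were lower (median −0.13, and −0.06 without SNI 1 and −0.04 without sham 2). Sla, an adaptor protein, had 12.8, 14.4 and 12.6 CPM against 9.22, 11.7 and 11.1 CPM (−0.31, SE 0.11, and −0.41 after the GC-content offset).

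Inhibitory neuron genes divided evenly, 16 higher and 14 lower of 30 (median 0.01). Gad1 had 272, 261 and 273 CPM after sham surgery and 260, 255 and 255 CPM after SNI (log2 fold change −0.07, SE 0.06). Slc32a1, which loads GABA into vesicles, had 102, 101 and 81.3 CPM against 76.4, 83.4 and 75.8 CPM (−0.27, SE 0.09), and its value was −0.10 after the GC-content offset. Among interneuron classes the peptide genes Sst and Vip stood at −0.15 (SE 0.09, and −0.06 without SNI 1) and 0.24 (SE 0.08), and Pvalb, a calcium buffer of fast-spiking cells, at −0.20 (SE 0.17). The 0.24 of Vip was 0.00 after the GC-content offset. Of 18 striatal and septal genes tested 15 were lower (median −0.10), 5 (27.8%) at an unadjusted p under 0.05, where 5.36% of all genes were. The pools did not overlap in 5.56% of this list, against 15.1% of all genes. Drd2, the dopamine D2 receptor, had 2.7, 5.87 and 4.02 CPM after sham surgery and 1.91, 3.11 and 1.96 CPM after SNI (−0.85, SE 0.27), with overlapping groups. The adenosine receptor gene Adora2a and the phosphatase inhibitor gene Ppp1r1b had −0.54 (SE 0.19) and −0.42 (SE 0.14, and −0.25 after the offset), whereas Drd1 had 0.00 (SE 0.13).

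Genes that respond to neuronal activity or stress showed no common direction. Of 30 immediate early genes 14 were higher and 16 lower (median −0.02). Fos had 23.3, 28.4 and 33 CPM after sham surgery and 34.9, 28.3 and 22.5 CPM after SNI (log2 fold change 0.02, SE 0.15). Arc, which acts at synapses after activity, had 0.08 (SE 0.11) and Egr1 had 0.07 (SE 0.10), all with overlapping groups. Without SNI 1 these values changed sign, to −0.15 for Fos, −0.06 for Arc and −0.04 for Egr1. Jun was the member with the smallest p, with 67.7, 74 and 64.5 CPM against 57.8, 61.9 and 55 CPM (−0.24, SE 0.08, and −0.14 after the GC-content offset). Of 30 glucocorticoid response and clock genes 18 were higher (median 0.03), and Fkbp5, a chaperone induced by glucocorticoids, had 0.01 (SE 0.09).

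Genes of lipid synthesis were lower more often than higher. Of 43 genes of sterol and fatty acid synthesis 28 had a lower mean (median −0.09), 8 (18.6%) at an unadjusted p under 0.05, where 5.36% of all genes were. In 10 (23.3%) every SNI pool lay below every sham pool, as in 7.63% of all genes. Srebf1, the transcription factor that drives fatty acid synthesis, had 64.8, 63.2 and 56.5 CPM after sham surgery and 46.4, 49.5 and 50.2 CPM after SNI (log2 fold change −0.34, SE 0.07). Its value was −0.30 without SNI 1 and −0.21 after the GC-content offset. Apoe, the main lipid carrier of brain, had 1390, 1360 and 1260 CPM against 1120, 1100 and 1210 CPM (−0.23, SE 0.07, and −0.09 after the offset). Fasn, fatty acid synthase, had −0.18 (SE 0.08, and −0.06 after the offset). After the offset the median of the list was −0.04.

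Of 48 genes of semaphorin, plexin and netrin signalling 37 had a lower mean (median −0.11, and −0.03 after the GC-content offset), 8 (16.7%) at an unadjusted p under 0.05, where 5.36% of all genes were. The pools did not overlap in 10.4% of the list, against 15.1% of all genes. Ntn1, the guidance ligand netrin-1, had 15, 16.8 and 15.1 CPM after sham surgery and 12, 12.9 and 12.8 CPM after SNI (log2 fold change −0.32, SE 0.09, and −0.20 after the offset). Its repulsive receptor Unc5b had 34.9, 35.5 and 29.4 CPM against 16.3, 27 and 23.4 CPM (−0.58, SE 0.14), and the attractive receptor Dcc had 24.2, 23.1 and 20.9 CPM against 23.6, 21.7 and 22.5 CPM (−0.01, SE 0.08). Without SNI 1 the value of Unc5b was −0.40, and after the offset it was −0.45. In 5 of the 48 genes, Ntn1 and Unc5b included, every SNI pool lay below every sham pool, and Dcc overlapped. Unc5b was at −0.33 in the male mPFC and 0.17 in the female ACC.

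Ion channel and receptor lists had medians near 0. The 42 voltage-gated potassium channel genes had a median of −0.03, the 30 sodium, calcium and HCN channel genes −0.01, the 37 glutamate genes 0.00, the 27 GABA and glycine genes 0.05, the 41 monoamine, acetylcholine and opioid genes −0.01 and the 26 neurotrophin and plasticity genes 0.02. At an unadjusted p under 0.05, 18.5% of the GABA and glycine genes were higher and 7.41% lower, and 10.8% of the glutamate genes were higher and 13.5% lower, where 6.71% of all genes were higher and 5.36% lower. After the GC-content offset 1 GABA or glycine gene was higher and 1 lower, and 0 glutamate genes were higher and 2 lower. Kcng2, a modifying potassium channel subunit with 61.5% GC, had −0.53 (SE 0.12) and Kcnh7, a channel of the ERG type with 39.6% GC, 0.32 (SE 0.10). After the offset these were −0.37 and 0.11. Hcn2, a pacemaker channel with 65.4% GC, had −0.24 (SE 0.08) and then −0.03.

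Among receptors, Adra2a, a noradrenaline receptor, had 17.7, 20.3 and 17.2 CPM after sham surgery and 12.9, 15.3 and 14.6 CPM after SNI (log2 fold change −0.37, SE 0.10, and −0.24 after the offset), without overlap. Oprm1, the mu opioid receptor, had 1.66, 2.19 and 2.07 CPM against 1.57, 1.48 and 1.66 CPM (−0.33, SE 0.22), with overlapping groups. Gria1 and Grik5, an AMPA and a kainate receptor subunit, had −0.06 (SE 0.07) and −0.20 (SE 0.08), and after the offset −0.06 and −0.04. Bdnf, the neurotrophin, had 51.9, 47.9 and 59.2 CPM against 63.9, 57.4 and 59.5 CPM (0.18, SE 0.08), which was 0.02 after the offset, while the neurotrophin receptor gene Ntrk3 had 0.21 (SE 0.07) and 0.11. Hdac5, a histone deacetylase, had −0.23 (SE 0.07) and −0.09.

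Of 24 nuclear-retained or host-gene long noncoding RNAs tested, 21 had higher means after SNI. The median of the list was 0.17, and 0.06 after the GC-content offset. Malat1, a nuclear speckle RNA, had 1220, 1040 and 1520 CPM after sham surgery and 1640, 1530 and 1750 CPM after SNI (log2 fold change 0.38, SE 0.11, and 0.26 after the offset). Kcnq1ot1, the imprinted antisense RNA of the Kcnq1 locus, had 33.4, 30.6 and 51.8 CPM against 60.3, 57.4 and 62.8 CPM (0.64, SE 0.15, and 0.47 after the offset). Snhg14, the host RNA of small nucleolar RNAs that runs into Ube3a on chr7:59307924-59975759 (GRCm38, minus strand), had 3495, 3126 and 3586 counts against 4001, 4937 and 4851. Its log2 fold change of 0.41 became −0.01 after the offset, and its annotated transcript has 31% GC. Meg3 and Neat1 overlapped at 0.16 (SE 0.09) and −0.15 (SE 0.15), and Neat1 was at 0.05 without SNI 1. Of 33 imprinted genes 18 were higher and 15 lower (median 0.00), with Ube3a, the ubiquitin ligase silenced by Snhg14, at 0.28 (SE 0.11, and 0.01 after the offset) and Snrpn at −0.05 (SE 0.07).

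Of 13 mitochondrially encoded genes listed 12 were tested, and mt-Nd1 had 0 counts in each of the 6 libraries. All 12 had higher means after SNI, with a median of 0.42, but in none did the groups separate. How fully reads of the mitochondrial genome were counted was not tested. mt-Cytb, cytochrome b, had 6.71, 7.57 and 10.7 CPM after sham surgery and 10.1, 12.6 and 17 CPM after SNI (log2 fold change 0.67, SE 0.19). mt-Nd3, a subunit of complex I, had 108, 113 and 185 CPM against 156, 229 and 254 CPM (0.65, SE 0.19). mt-Co1, the most abundant of them, had 6500, 5780 and 7320 CPM against 6940, 6830 and 7660 CPM (0.13, SE 0.09). Sham 3 lay with the SNI pools, and the median was 0.74 without it, 0.18 after the GC-content offset and between 0.29 and 0.58 without any other pool. The share of all counts on mitochondrial genes was 1.43%, 1.33% and 1.91% in the sham and 1.73%, 1.76% and 2.04% in the SNI pools. Nuclear genes of oxidative phosphorylation did not share this, with 44 higher and 32 lower of 76 (median 0.02), and Cox7c, a small subunit of complex IV, at 0.35 (SE 0.12, and 0.12 after the offset). Of 79 ribosomal protein genes 48 were higher (median 0.02), with Rpl39 at 0.48 (SE 0.16).

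Of 50 genes of the TGF-beta superfamily 26 were higher (median 0.01), Ltbp4, which holds the latent ligand in the matrix, having −0.22 (SE 0.07) and −0.05 after the GC-content offset. Of 28 myosin genes 9 were higher and 19 lower (median −0.04), 5 of them lower at an unadjusted p under 0.05 (17.9%, against 5.36% of all genes), and Myo9a had 0.23 (SE 0.07, and 0.10 after the offset). Of 27 skin, liver and blood genes, which brain should largely lack, 12 passed the filter (median 0.03). Krt5 and Krt14, keratins of skin, had 129 and 56 counts in SNI 3, at most 2 in SNI 2 and 0 in SNI 1 and every sham pool. Both were under the filter and were not tested.

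Protein-coding genes were named by p among those whose groups did not overlap. The 12 higher genes had log2 fold changes of 0.36 to 1.36, all at an adjusted p of 0.401. Gm17555 (chr2:126215100-126216212, plus strand, GRCm38) had 88, 89 and 68 counts after sham surgery and 138, 136 and 186 after SNI, or 3.17 ± 0.309 against 5.93 ± 0.922 CPM (SD, n = 3), which is a difference of 0.90 on the log2 scale (SE 0.16). Serpinb6b, of the serine protease inhibitors, had 14, 17 and 13 counts against 37, 26 and 51 (1.36, SE 0.32). Il1rapl1, an X-linked adhesion receptor of synapses, had 426, 423 and 458 counts against 598, 549 and 627 (0.43, SE 0.10), and Tmem267, a transmembrane protein, 522, 473 and 400 against 575, 874 and 623 (0.56, SE 0.12). The others were Sarnp, which takes part in mRNA export, the zinc finger genes Zfp397 and Zfp955b, the olfactory receptor Olfr986 and the predicted genes Gm14326, Gm14295, Gm17655 and AC132444.6. Of the 11 with a GC value 10 belonged to the class poorest in GC, and 11 of the 12 kept an unadjusted p under 0.05 after the offset, the exception being Il1rapl1 (log2 fold change 0.14, unadjusted p = 0.105). In the male mPFC the 12 genes lay between −0.17 and 0.27.

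The 12 lower genes had log2 fold changes of −0.98 to −0.28. Togaram2 (chr17:71673261-71729669, plus strand), which binds microtubules, had 64, 76 and 56 counts after sham surgery and 28, 33 and 39 after SNI, or 2.54 ± 0.256 against 1.29 ± 0.138 CPM (SD, n = 3), which is a difference of −0.98 on the log2 scale (SE 0.21). Myh14 (chr7:44605803-44670843, minus strand), a heavy chain of non-muscle myosin, had 1177, 1194 and 928 counts against 707, 857 and 910 (−0.43, SE 0.08). Gdf1 (chr8:70329817-70331587, plus strand), a ligand of the TGF-beta superfamily, had 431, 401 and 276 counts against 234, 225 and 209 (−0.73, SE 0.14). All of its exon bases lie on exons of Cers1, a ceramide synthase read on the same strand, so reads of the 2 genes cannot be told apart there. Cers1 itself had 3726, 3813 and 2805 counts against 2774, 3197 and 3120. The others included Kcng2, Srebf1, Unc5b, the serum response factor Srf, the collagen-binding receptor kinase Ddr1, the orphan receptor Gpr62, the RNA-binding Carhsp1 and Sssca1, 74.4% of whose exon bases are shared with Fam89b or a second Sssca1 entry. Of these 12 genes 11 belonged to the class richest in GC, and 10 kept an unadjusted p under 0.05 after the offset. Srf, at −0.10, was among those that did not.

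**Figure D3:**
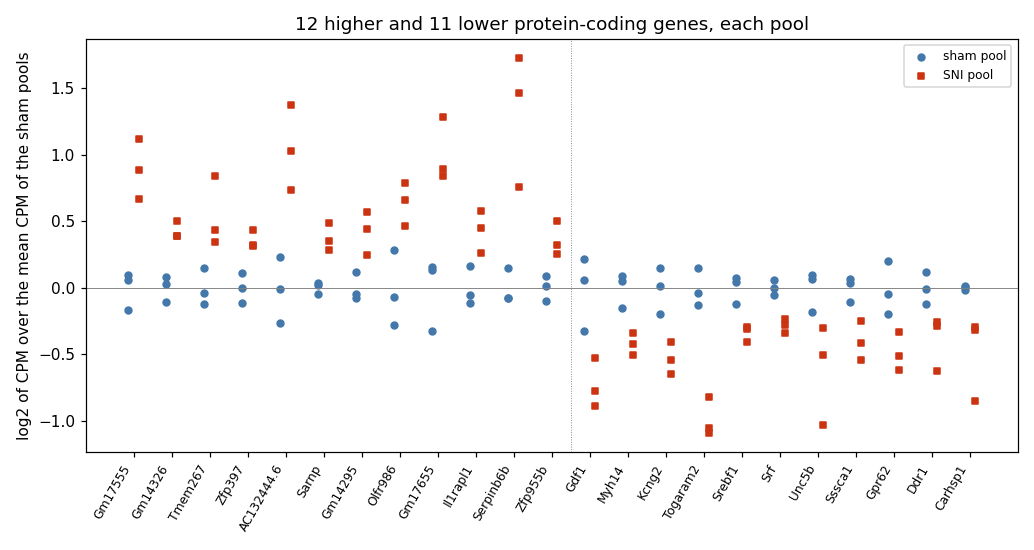
Each pool of the 12 higher and 11 of the 12 lower protein-coding genes (x axis), as log2 of CPM over the mean CPM of the sham pools (y axis), with sham pools as circles and SNI pools as squares. No SNI pool overlaps a sham pool, by the rule that chose the genes, and the log2 fold changes run from −0.98 to 1.36.

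The link to GC held over all genes. Of the 3377 genes in the class poorest in GC (28.7% to 43.4%), 798 were higher and 12 lower at an unadjusted p under 0.05, with a median log2 fold change of 0.17. Of the 3377 in the class richest in GC (55.4% to 78.3%), 24 were higher and 565 lower, with a median of −0.13. Sham 1 and sham 2 lay at one end of this trend, and sham 3 lay beside the SNI pools. After the GC-content offset the counts were 189 and 190 in the poorest class and 102 and 81 in the richest, 576 and 585 over all genes, and Gm26508 was again the 1 gene called. The source of the trend was not tested. Without sham 3 the test called 2758 genes, 1159 of them higher genes of the poorest class and 987 lower genes of the richest class, and after the offset it called 38. Of 365 zinc finger genes named Zfp, a class picked after its values were seen, 67 (18.4%) were higher and 13 (3.56%) lower, where 6.71% and 5.36% of all genes were, and after the offset 10 and 5.

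**Figure D4:**
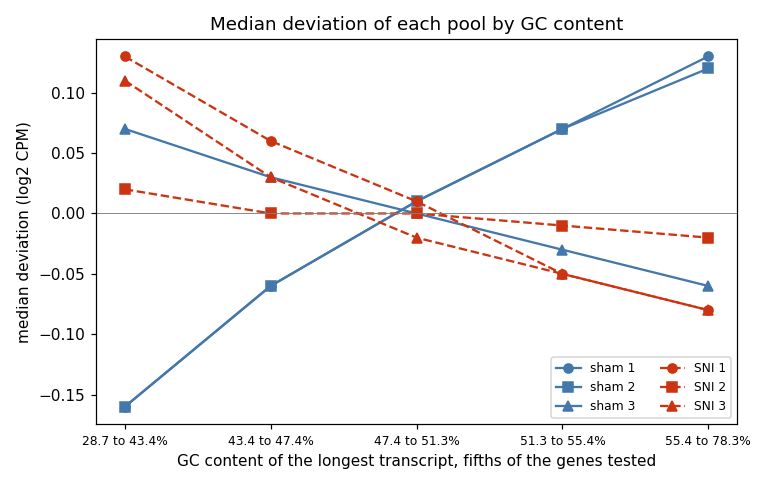
Median deviation of log2 CPM from the mean of the 6 pools (y axis) for genes in 5 classes of transcript GC content (x axis), sham pools as solid and SNI pools as dashed lines. Sham 1 and sham 2 run from −0.16 to at least 0.12, whereas sham 3 runs from 0.07 to −0.06. SNI 1, 2 and 3 run from 0.13, 0.02 and 0.11 to −0.08, −0.02 and −0.08.

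Processed pseudogenes and transcripts of uncertain status had a shift after the GC-content offset. Of 212 processed pseudogenes 55 were higher and 7 lower at an unadjusted p under 0.05 (median 0.33), and after the offset 47 and 8 (median 0.23). Of 636 transcripts of the class TEC, which awaits experimental support, 125 were higher and 3 lower (median 0.32), and then 79 and 2 (median 0.19). Of 556 lincRNAs 56 were higher and 8 lower (median 0.12), and then 39 and 8 (median 0.06). Both classes with the larger shift were low in sham 1 and sham 2, with median deviations of −0.18 and −0.18 for processed pseudogenes, 0.05 in sham 3 and 0.05, 0.20 and 0.28 in the SNI pools.

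The pseudogene Gm48786 (chr10:51543035-51546848, plus strand) had 104, 109 and 126 counts after sham surgery and 206, 196 and 193 after SNI (log2 fold change 0.80, SE 0.14, and 0.58 after the offset). The antisense RNA Gm27177 had 23, 14 and 26 counts against 72, 175 and 48 (2.20, SE 0.43), and 29% of its exon bases lie opposite exons of Entpd4b and Loxl2. Gm21955 and Gm47476 had 0.34 (SE 0.07) and 0.64 (SE 0.14). Among the lower genes the pseudogenes Gm10359 (chr5:105862701-105863702) and Gm12671 (chr4:91851668-91852669) had the same counts, 2009, 2271 and 1283 after sham surgery and 871, 972 and 143 after SNI (−1.46, SE 0.43). Both are 1002 bases long and differ at 0 bases, so they are 1 measurement. Gm38182 (−0.57, SE 0.18) lies wholly on exons of the gamma protocadherin cluster.

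Gm26508, the called gene, is a lincRNA at chr11:119077573-119081865 on the plus strand (GRCm38). It had 29, 65 and 22 counts in the sham pools and 0 in each SNI pool, at least 12.7-fold lower against a floor of 3 counts per library (adjusted p = 0.0823 in edgeR's quasi-likelihood test). Its exons lie wholly opposite exons of another gene. Whether the counting used the strand of reads is not given in the sources used here. Without strand, reads of such a pair cannot be told apart. Over all 24 libraries Gm26508 had 0 counts in 10, and every other group held both libraries at 0 or near it and libraries with reads. The female ACC had 68, 0 and 0 counts after sham surgery and 48, 6 and 0 after SNI, and the male mPFC 21, 0 and 0 after sham surgery and 2, 84 and 8 after SNI.

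Other genes with such gaps were placed in the same way. B430305J03Rik, wholly opposite exons of Rap2b, had 249, 303 and 0 counts after sham surgery and 0 in each SNI pool, and in the male mPFC 0, 36 and 0 after sham surgery and 158, 276 and 64 after SNI. Gm26723, wholly opposite exons of another gene, had 44, 0 and 288 counts against 0, 3 and 0. B430305J03Rik and Gm26723 did not pass the low-count filter in this comparison, so neither was tested. Gm26675 and Gm43118, wholly opposite Zfp597 and Pitpnb, had 62, 76 and 55 against 36, 4 and 1 counts and 46, 101 and 46 against 26, 28 and 0. Of the 171 genes wholly opposite exons of another gene, 13 (7.6%) had a pool at 0 and another at 20 counts or more in this comparison, as did 82 of the 33193 other genes (0.247%). The pseudogene Gm6565, named after its values were seen, had 0, 46 and 0 counts after sham surgery and 90, 147 and 123 after SNI.

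**Figure D5:**
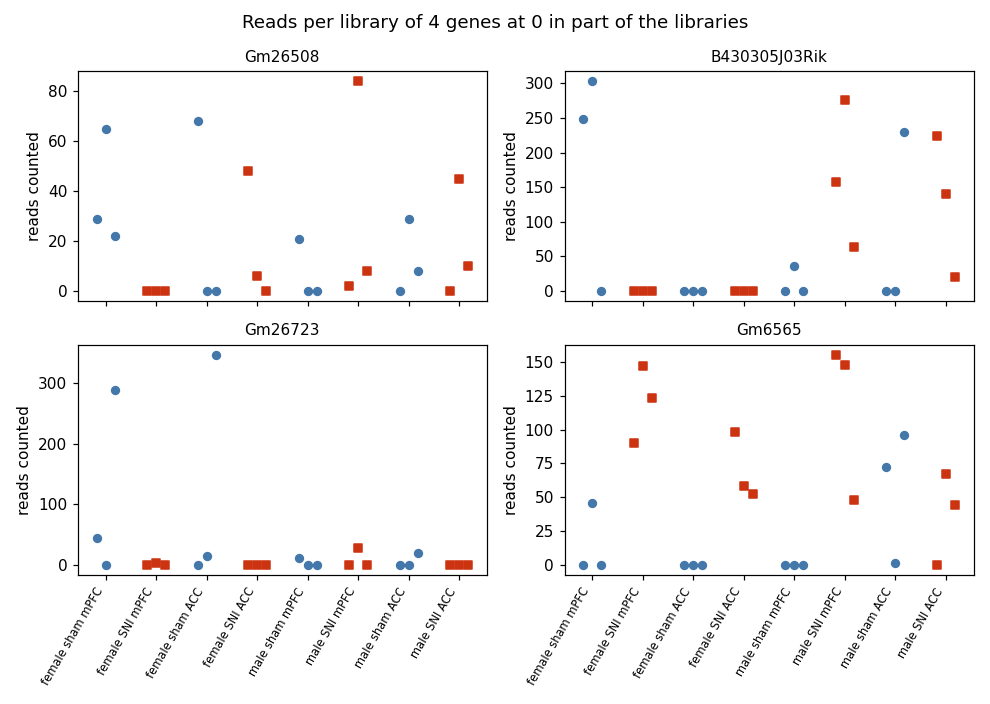
Reads counted on 4 genes (y axis) in each of the 24 libraries by group (x axis), with sham libraries as circles and SNI libraries as squares. Gm26508 has 22 to 65 counts in the sham pools of females' mPFC, 0 in the SNI pools there and, in each other group, libraries under and over the floor of 3 counts, whereas Gm6565 has 90 to 147 counts in the SNI pools of that region.

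A locus listed as 2 overlapping entries had values of opposite sign. Zc3h11a, an mRNA export gene chosen after its values were seen, is listed as ENSMUSG00000102976, with 1043, 718 and 656 counts after sham surgery and 1168, 1237 and 1155 after SNI (log2 fold change 0.55, unadjusted p = 0.00117). The entry ENSMUSG00000116275 had 1040, 1324 and 1402 counts against 765, 1020 and 1095 (−0.41, unadjusted p = 0.00495). Their sum was 2083, 2042 and 2058 counts against 1933, 2257 and 2250 (0.04, unadjusted p = 0.522).

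The SNI effect was also set beside that of males and of the other region. Over the 12 mPFC libraries the interaction of sex and SNI called 0 of 17641 genes (0%), with a smallest adjusted p of 0.216 in edgeR while 2791 genes (15.8%) had p under 0.05 before adjustment. The region by SNI interaction over the 12 female libraries called 0 of 17451 (0%), with a smallest adjusted p of 0.428 and 1932 genes (11.1%) at that threshold. DESeq2 called 806 and 6. On its own, the test of SNI against sham called 0.494% of genes in the male mPFC and 0.024% in the female ACC. Of the 24 named protein-coding genes 19 had an unadjusted sex interaction p under 0.05. Gdf1 was the extreme case, with a log2 fold change of −0.73 in females and 0.70 in males, a difference of −1.43 (unadjusted p = 0.000631, adjusted p = 0.216). Gm17555 had 0.90 in females and −0.02 in males (difference 0.92, unadjusted p = 0.00214) and −0.13 in the female ACC. These genes were chosen for their effect in the female mPFC, so their interaction values are a description.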

How the data were processed

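Total RNA of punched tissue, 1 pool of animals per library, was sequenced with paired-end reads. Whole-number gene counts were deposited by the authors, per the submitters' processing notes after trimming with Trimmomatic 0.36, removal of reads matching Rfam with Bowtie2 2.33, alignment to GRCm38 with HISAT2 2.1.0 and counting with HTSeq 0.9.1, with edgeR 3.34.0 for their own tests. The annotation release and the strand setting of the counting are not given in the sources used here.

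Counts were analysed in R 4.3.3 with edgeR 4.0.16 and limma 3.58.1. Genes passed filterByExpr (minimum count 10, minimum total 15), libraries were scaled by TMM, and 3 SNI pools were tested against 3 sham pools with the quasi-likelihood F-test in its legacy form, with Benjamini-Hochberg adjustment and an FDR threshold of 0.1, as in the study's methods. Log2 values used a prior count of 2. The interactions were fitted over 12 libraries each. An exact permutation test of 3 against 3 cannot give a two-sided p below 0.1, so none was used. Counts of same-group pools differed beyond counting noise (chi-square of 4.33 to 14 per gene). The GC-content offset was a spline of 5 degrees of freedom per library over transcript GC. All 33364 genes were found in GENCODE mouse release 21 (M21), which gave positions, biotypes, GC and exon overlap. Upstream stretches came from RefSeq.

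The members and gene lists were chosen with earlier results of these data known. Text names the called gene, the 12 higher and 12 lower protein-coding genes and the 5 higher and 5 lower others with the smallest p among those with a mean of at least 1 CPM and pools that did not overlap, 7 genes the study named, and the leads and the 2 smallest-p members of each list. Other names are marked as chosen after their values were seen. Alternatives were DESeq2 1.42.0, other scalings, filters and tests, limma voom, a replicate block, the GC-content offset and leaving out each library. The tests were tried on simulated data. Some items are not reported here.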

Additional observations from a re-analysis of the deposited data

How the results depend on the processing

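The number of genes called in the female mPFC, 1, was also 1 with DESeq2's type of size factors (RLE), robust dispersion priors, limma voom, the replicate block and the GC-content offset. It was 0 with library totals as the only scaling, with at least 10 counts required in every library, with the current quasi-likelihood method and with 1 model over all 24 libraries. It was 13 with DESeq2, 77 with the likelihood ratio test, 641 without the low-count filter, 66 with edgeR's exact test and no such filter, 2095 with limma voom and sample quality weights, and 46 with the GC-content offset and the replicate block together. Leaving out 1 library gave 0 to 2758 calls: 2758 without sham 3, 11 without SNI 1, 3 without sham 2, 1 without sham 1 and 0 without SNI 2 or SNI 3. Gm26508 was not called without sham 1, SNI 2 or SNI 3. With the GC-content offset, chosen for these repeats after the data were seen, the calls were 2, 3 and 38 without sham 1, 2 and 3 and 16, 2 and 6 without SNI 1, 2 and 3. Whether the replicate numbers pair the samples is not given in the sources used here. The correlations of same-numbered pools were 0.03, 0.16 and 0.13, and those of differently numbered pools ran from −0.16 to 0.03. These few values cannot settle the pairing. With the replicate block the myelin median was −0.57.

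The sex by SNI interaction called 806 genes with DESeq2, 883 without the low-count filter, 255 with the likelihood ratio test, 3 with the replicate block and 0 to 3283 with 1 library left out (3283 without sham 3 and 6 without SNI 1 of the female mPFC). The region by SNI interaction called 6, 672 and 17 with the same first 3 settings, 0 with the block and 0 to 2070 with 1 library left out (2070 without sham 3, 3 without SNI 1 and 1 without sham 1 of the female mPFC, 1 without sham 3 of the ACC). Both called 0 with the GC-content offset, also chosen after the data were seen.

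Among the named genes, these values turned sign, with a call or a move of over 2 standard errors, all with the GC-content offset. Snhg14 was at −0.01, also with the block, and at −0.01, −0.11 and −0.10 without sham 2, sham 3 and SNI 2. mt-Co1 was at −0.07, −0.06 with the block, and −0.10, −0.07, −0.06 and −0.09 without sham 2, sham 3, SNI 2 and SNI 3. With the offset and 1 library left out, Bdnf was at −0.01 without sham 2 and −0.02 without SNI 1, Ube3a at −0.03 without sham 1 and −0.03 without SNI 1, Vip at −0.05 without sham 3 and −0.02 without SNI 3, Kcnh7 at 0.00 without SNI 1 and Cldn5 at 0.07 without SNI 2. Over all settings, 2640 values of named genes stayed on their side of the threshold without such a turn, changes of sign within 2 standard errors of values near 0 included, 6 fell below it, 301 passed it and 19 turned sign in that sense, and 72 of 891 list medians moved by more than the spread within groups. The cause of these changes was not tested. Depth limits the genes near the floor of 3 counts, such as Klk6.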
